A study of Mus musculus with 6 samples.

Results

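Lipoproteins are particles that carry triglyceride, cholesterol and fat-soluble vitamins through blood and lymph, and apolipoproteins are the proteins that build them and direct their fate. In this report 10 mouse genes of this system were followed in the proximal colon of Hnf4α mutant and control mice, among the 18193 genes that had a probe set of their own on the array. They were chosen by gene name: Apob, which codes for the structural protein of chylomicrons and very low density lipoproteins; Mttp, which codes for the protein that loads lipid onto it; Apobec1, the enzyme that edits its mRNA; the exchangeable apolipoproteins Apoa1, Apoa4, Apoc2, Apoc3, Apoe and Apom; and Ttr, which codes for transthyretin, a plasma carrier of thyroid hormone and, through retinol binding protein, of retinol. Earlier results of these data were known when the 10 genes were chosen, so their counts beside all genes are a description. Of the probe sets of each gene, the one with the highest average signal across all 6 arrays stood for it, and the others served as a check.

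The arrays came from 3 control and 3 mutant littermates of 12 months, 1 array a mouse, and total RNA came from unsorted proximal colon, in which markers of smooth muscle and stroma were high as well. Mutants carried loxP-flanked Hnf4a and a Cre transgene under the Villin promoter, which is active in the gut epithelium, so other cells of the tissue kept the gene. Controls are labelled wildtype, and all mice received ketamine and xylazine before sacrifice. All values are log2 signals from RMA, and a difference is always the mean of the mutants minus the mean of the controls on that scale.

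Hnf4α is a nuclear receptor that binds a pair of spaced half-sites in the promoters of many liver and gut genes, apolipoprotein genes among them. The small intestine and the liver make most lipoproteins. In the absorptive cell apolipoprotein B is folded around lipid by the microsomal triglyceride transfer protein, and the small apolipoproteins join the particle before or after it leaves the cell. Macrophages are a known source of apolipoprotein E outside the liver.

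Values are listed throughout in the order of replicates 1, 2 and 3. Hnf4a read 12.23, 12.01 and 11.97 in the controls and 10.17, 10.09 and 10.15 in the mutants (log2 difference -1.94, adjusted p = 0.000788 from limma). Its paralog Hnf4g did not pass the test (log2 difference 0.21, 95% interval -0.57 to 1.00, adjusted p = 0.807). Xist RNA was at least 9.94 in each control and at most 5.32 in each mutant, and the Y-linked Eif2s3y showed the opposite order, although mutant replicate 1 is labelled female like the controls. Sex and genotype therefore cannot be told apart in any difference given here. In mutant replicate 2 the median of 10 smooth muscle markers was 4.21 log2 units below the control mean and that of 10 fibroblast and matrix markers was 3.27 units below it, while the median of 12 gut epithelium markers lay within 0.19 units of the controls in every mutant. Differences are given with and without this array for Apob, Apoc2, Ttr, Apoa4, Apoe, Celf2 and Lrp1. They are not given so for every gene that was lowest there.

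Promoter windows of 300 bases, mostly upstream of the annotated start and partly past it, were read for 8 of the 10 genes from RefSeq (GRCm38.p6). No window was read for Apoc3 or Ttr, so their promoters were not searched, and whether RefSeq holds a window for Ttr was not tested. Both strands were searched for CAAAGTCCA, a full Hnf4α-type site, for CAAAGNNCA, which leaves its middle bases free and contains the first motif as a case, and for AGGNCA, a single nuclear receptor half-site. CAAAGTCCA was in 0.475% of 32851 mouse promoter windows and in no window of these genes. CAAAGNNCA was in 6.36% of all windows and in the windows of 3 of the 8 genes, Apob, Apoa4 and Apobec1. The half-site AGGNCA was in 57.2% of all windows and in those of Apob, Apoc2 and Apoe. The 3 promoters with a CAAAGNNCA match, those of Apob, Apoa4 and Apobec1, are shown. Apob had the largest difference of the 10 genes, the groups of Apoa4 did not overlap, and those of Apobec1 did. Capitals mark the CAAAGNNCA match, and each window is written 5′ to 3′ on the strand of its gene.
Apob, chr12:7977427-7977726, plus strand: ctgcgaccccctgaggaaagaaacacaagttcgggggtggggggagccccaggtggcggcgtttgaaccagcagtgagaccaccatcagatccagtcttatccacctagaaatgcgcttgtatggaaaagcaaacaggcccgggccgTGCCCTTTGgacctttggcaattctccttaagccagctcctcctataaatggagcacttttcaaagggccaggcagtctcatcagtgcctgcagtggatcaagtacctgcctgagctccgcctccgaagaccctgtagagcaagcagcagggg
Apoa4, chr9:46240594-46240893, plus strand: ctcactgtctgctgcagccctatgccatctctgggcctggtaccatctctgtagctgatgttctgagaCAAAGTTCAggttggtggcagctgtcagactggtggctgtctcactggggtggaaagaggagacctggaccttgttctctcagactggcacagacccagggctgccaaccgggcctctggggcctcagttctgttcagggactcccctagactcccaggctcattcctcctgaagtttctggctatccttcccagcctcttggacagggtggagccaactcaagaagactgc
Apobec1, chr6:122602395-122602694, minus strand: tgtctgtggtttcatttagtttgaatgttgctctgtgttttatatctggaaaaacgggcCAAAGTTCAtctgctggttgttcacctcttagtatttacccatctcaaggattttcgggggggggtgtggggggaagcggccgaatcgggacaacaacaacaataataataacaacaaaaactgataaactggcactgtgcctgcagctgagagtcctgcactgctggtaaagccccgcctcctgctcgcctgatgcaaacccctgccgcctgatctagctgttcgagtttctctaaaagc
In Apob the match begins at position -103 from the start, reads TGCCCTTTG because it lies on the opposite strand, and contains a match to AGGNCA in its first 6 bases. In Apoa4 it begins at -182 and in Apobec1 at -191, and in both it reads CAAAGTTCA. A match is a description of the letters, and binding was not measured on these arrays.

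None of the 10 genes passed an adjusted p of 0.05 in limma, where 0.396% of all genes were lower and 0.484% were higher in the mutants. At an unadjusted p of 0.05, 4 were lower (Apob, Apoc2, Apoa4 and Ttr) against 6.18% of all genes, and 1 was higher (Apom) against 10%. In the same 4 genes every mutant lay below every control, which was so for 8.86% of all genes, and in Apom every mutant lay above every control, against 14.5%. SAM, the test named in the methods, called the same 4 genes lower, against 5.77% of all genes, and none higher, against 9.78%, at an unadjusted p of 0.05. The median difference over the 10 genes was -0.44, against 0.05 over all genes. Without mutant replicate 2 the differences of Apoc2, Ttr and Apoa4 were -1.24, -1.01 and -0.40. Groups of 3 allow no two-sided exact permutation p below 0.1.

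**Figure D1:**
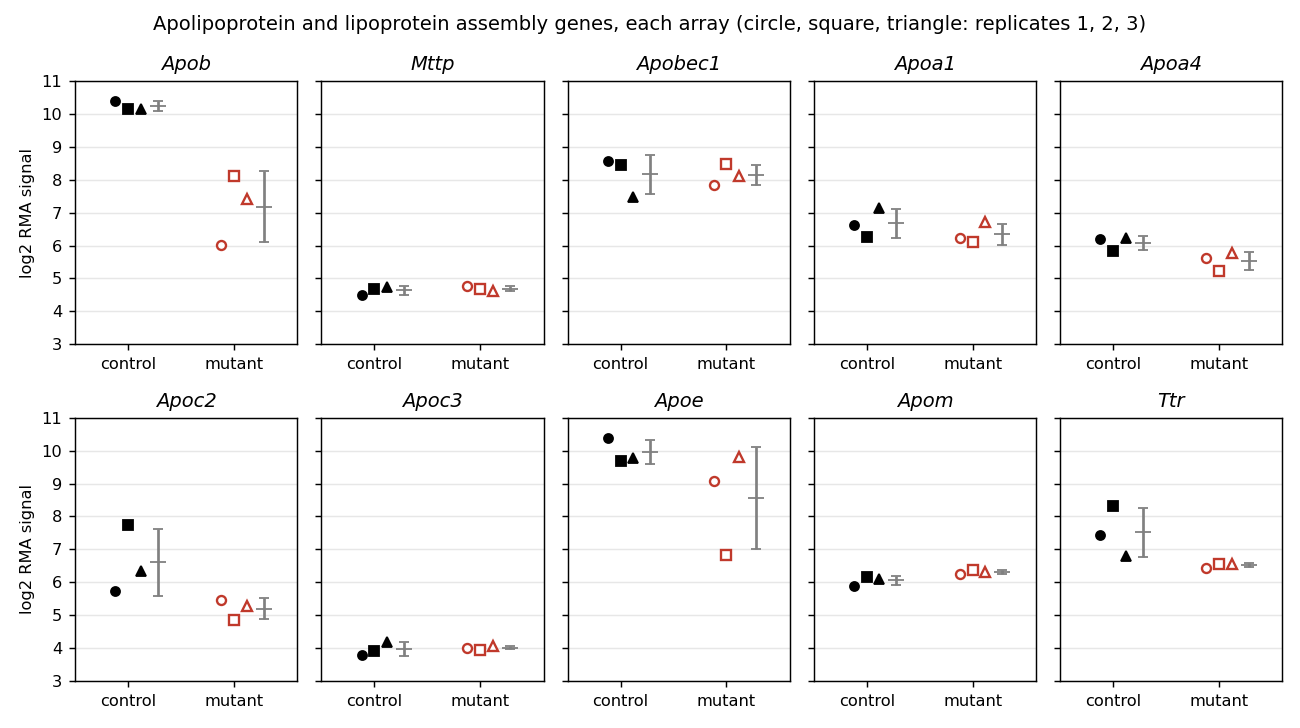
Log2 RMA signal of the 10 genes in each array, controls as filled black and mutants as open red symbols, with the mean and SD of each group (n = 3) in grey. Apob has the widest gap between the groups, and Apoc3 and Mttp stay below 5 in every array.

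Apob, on chromosome 12, codes for the protein around which chylomicrons are assembled. Its signal was 10.40, 10.15 and 10.15 in the controls and 6.01, 8.11 and 7.42 in the mutants. The controls lay close together (SD 0.15, n = 3), the mutants were spread more widely (SD 1.07, n = 3), and the groups did not overlap. The difference of -3.06 (standard error 0.48, 95% interval -4.20 to -1.91) corresponds to a mutant signal 0.120 times that of the controls. Its unadjusted p was 0.000419, and its adjusted p of 0.0602 from limma was the lowest of the 10 genes and just above the threshold.

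A second probe set of Apob read 6.44, 6.87 and 6.05 in the controls and 5.50, 5.57 and 5.72 in the mutants. Its groups did not overlap either, with a smaller difference of -0.86 (adjusted p = 0.165 from limma). The mean of both probe sets differed by -1.96 (adjusted p = 0.0276 from limma), past the threshold. Without mutant replicate 2, whose muscle and stroma markers were low, the first probe set differed by -3.52 (adjusted p = 0.0396 from limma), and without mutant replicate 1, the lowest array, by -2.47 (adjusted p = 0.0234). With any of the other 4 arrays left out the adjusted p of Apob stayed above the threshold, at 0.248, 0.0784 and 0.167 without control replicates 1, 2 and 3 and at 0.198 without mutant replicate 3.

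The genes whose signals followed that of Apob most closely were sought among 2391 genes with a mean of at least 5 and a range of at least 1 log2 unit. Pgap4, of the glycolipid anchor pathway, had a Pearson r of 0.999 over the 6 arrays. It was followed by Mep1a, which codes for a meprin subunit of the brush border (r = 0.995), Mab21l4 (r = 0.990), Cds1, which makes CDP-diacylglycerol (r = 0.989), and Pbld2 (r = 0.989). All 5 were, like Apob, lowest in mutant replicate 1. Pgap4, for example, read at least 9.90 in each control and 7.88, 8.90 and 8.62 in the mutants. Mab21l4 (log2 difference -1.42, adjusted p = 0.0470) and Pbld2 (log2 difference -1.22, adjusted p = 0.0361) passed the limma test, and the other 3 did not. These correlations describe 6 arrays that fall into separate groups, and carry no test.

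Mttp, on chromosome 3, codes for the large subunit of the microsomal triglyceride transfer protein, without which apolipoprotein B is degraded in the cell. Its signal was 4.50, 4.68 and 4.75 in the controls and 4.78, 4.68 and 4.62 in the mutants. The groups overlapped, and the difference was 0.05 with a 95% interval of -0.20 to 0.31. Its second probe set differed by -0.27. For scale, 9 Y-linked probe sets in the controls, whose RNA lacked Y-linked transcripts, read between 2.56 and 4.01.

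Apobec1, on chromosome 6, codes for the deaminase that converts a codon of Apob mRNA into a stop, which gives the short apolipoprotein B of chylomicrons. Its signal was 8.58, 8.44 and 7.48 in the controls and 7.84, 8.47 and 8.13 in the mutants. The groups overlapped, and the difference was -0.02 (95% interval -0.75 to 0.71). The sign of a difference this small depended on how the arrays were centred, as it did for Mttp and Apoc3.

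The genes of the Apoa1 neighbourhood lie together on chromosome 9, in the order Apoa1, Apoc3, Apoa4 and Apoa5. Apoa4, an apolipoprotein of chylomicrons that the small intestine makes after a fatty meal, read 6.20, 5.85 and 6.22 in the controls and 5.61, 5.22 and 5.76 in the mutants. The groups did not overlap, but the gap between the lowest control and the highest mutant was small next to the spread within the groups. The difference was -0.56 (standard error 0.17, unadjusted p = 0.0152, adjusted p = 0.272 from limma), and its second probe set overlapped between the groups with a difference of -0.23.

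Apoa1, the main protein of high density lipoproteins, read 6.61, 6.26 and 7.15 in the controls and 6.22, 6.11 and 6.70 in the mutants. The groups overlapped, with a difference of -0.33 (95% interval -0.93 to 0.27). With 1 array left out it ran from -0.54 (without control replicate 2) to -0.0926 (without control replicate 3). All 4 of its probe sets were lower on average in the mutants, by -0.82 to -0.33, and all 4 overlapped. Apoc3, an inhibitor of lipoprotein lipase, stayed between 3.79 and 4.19 in all 6 arrays, near the signals of the Y-linked probe sets in the controls, and its difference was 0.04 (95% interval -0.25 to 0.34). Apoa5, next to Apoa4, differed by 0.18 and did not pass the test either. The neighbours thus had unlike values, and whether they differ from each other was not tested.

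A second neighbourhood on chromosome 7 holds Apoc2, Apoc4, Apoc1 and Apoe in that order. Apoc2, the activator of lipoprotein lipase, read 5.74, 7.74 and 6.35 in the controls and 5.47, 4.84 and 5.27 in the mutants. All mutants lay below all controls, but control replicate 2 stood well above the other controls. The difference was -1.42 (standard error 0.48, unadjusted p = 0.0214, adjusted p = 0.300 from limma), and without control replicate 2 it was -0.85 (adjusted p = 0.162). Apoc2 had 1 probe set, so no second reading was at hand.

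Apoe, a ligand of lipoprotein receptors, read 10.37, 9.70 and 9.79 in the controls and 9.07, 6.83 and 9.81 in the mutants. Mutant replicate 2 was by far the lowest, mutant replicate 3 lay within the controls, and the groups overlapped. The difference of -1.38 (standard error 0.71, adjusted p = 0.455 from limma) shrank to -0.51 (adjusted p = 0.680) without mutant replicate 2. Most macrophage markers were low in the same array. Of 12 listed, 11 were measured, none passed the test, 9 had their lowest value in mutant replicate 2, and their summed linear signal was 3155 to 4179 in the controls and 3092, 1363 and 3642 in mutant replicates 1, 2 and 3. C1qb, a complement protein made by macrophages, was 8.47, 9.12 and 8.68 in the controls and 8.14, 4.42 and 8.59 in the mutants. C1qa, its partner, was 8.53 in mutant replicate 2, close to the 8.74 of mutant replicate 1. The other 2, Cd68 and Cd14, went the opposite way, with every mutant above every control, replicate 2 included, as in 14.5% of all genes. C1qc and Lyz2, both lowest in mutant replicate 2, had every mutant below every control, as had 8.86% of all genes. Cd68 read 5.95, 7.01 and 5.81 in the controls and 7.29, 7.63 and 7.69 in the mutants. The part of macrophages, smooth muscle and stroma in the Apoe signal was not tested, and fewer cells of a type and less RNA per cell cannot be told apart in whole tissue. The 2 genes between Apoc2 and Apoe had small differences, 0.17 for Apoc4 and -0.05 for Apoc1.

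**Figure D2:**
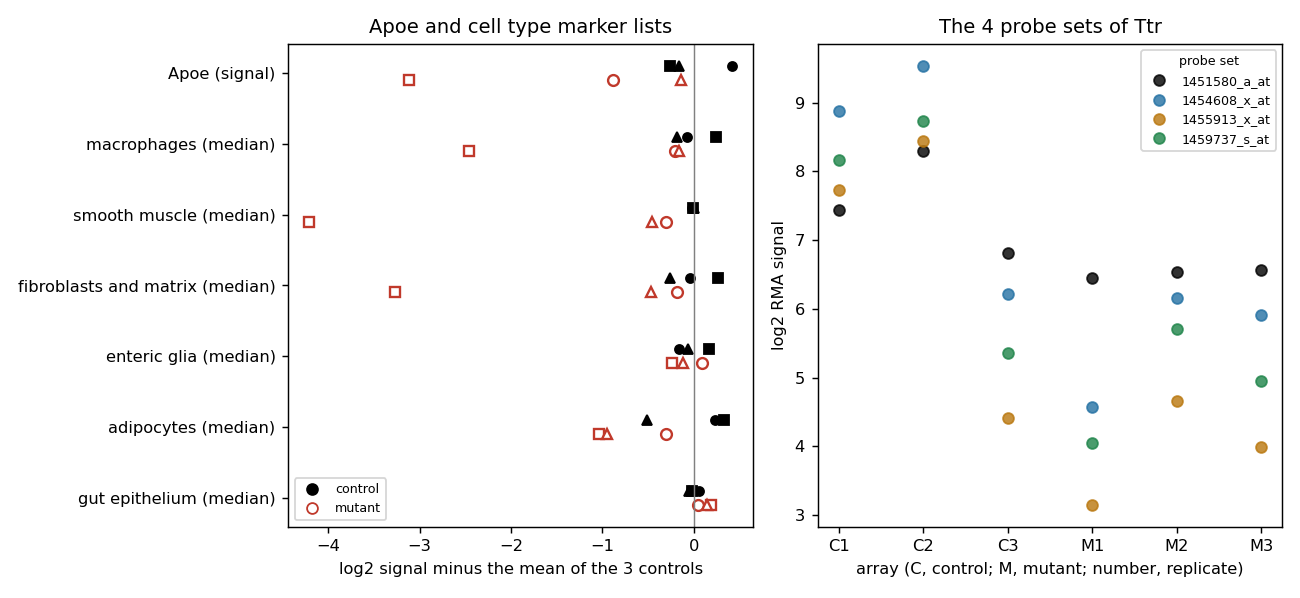
Left, Apoe signal and the median of each cell type marker list, each minus the mean of the 3 controls, in log2 units for every array (circle, square and triangle are replicates 1, 2 and 3). Mutant replicate 2, the open square, is far to the left for Apoe, macrophages, smooth muscle and fibroblasts but not for gut epithelium. Right, the log2 signal of the 4 Ttr probe sets by array, where 3 of the 4 are high in control replicates 1 and 2 and low in the other 4 arrays.

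Apom, on chromosome 17, codes for an apolipoprotein of high density lipoproteins that binds sphingosine 1-phosphate. It was the single gene of the 10 whose mutants all lay above the controls, with 5.89, 6.16 and 6.11 in the controls and 6.24, 6.37 and 6.32 in the mutants. The difference was 0.26 (standard error 0.11, unadjusted p = 0.0498, adjusted p = 0.384 from limma). Its second probe set differed by -0.06 and overlapped, so the 2 readings of Apom had opposite signs.

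Ttr, on chromosome 18, had 4 probe sets that did not give the same picture of the controls. The one with the highest mean read 7.44, 8.30 and 6.81 in the controls and 6.45, 6.54 and 6.56 in the mutants. The groups did not overlap, control replicate 3 lay close to the mutants, and the difference was -1.0 (standard error 0.34, unadjusted p = 0.0222, adjusted p = 0.304 from limma). In the other 3 the controls parted more widely. One of these had 8.88, 9.53 and 6.21 in the controls and 4.58, 6.16 and 5.91 in the mutants (log2 difference -2.66), so that control replicate 3 was next to mutant replicate 2. In the remaining 2, with differences of -2.93 and -2.52, control replicate 3 lay below mutant replicate 2 and the groups overlapped. The mean of the 4 probe sets differed by -2.28 (adjusted p = 0.228), while the first probe set alone, without control replicate 2, differed by -0.61 (adjusted p = 0.180).

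Among the hepatocyte markers Cps1, an enzyme of the urea cycle that the gut also expresses, had a like order over the arrays, with 7.05, 8.26 and 4.98 in the controls and 4.52, 4.51 and 4.19 in the mutants. It was singled out after its values had been seen. Of the 11 measured markers of that list it was the 1 whose mutants all lay below the controls, which was so for 8.86% of all genes. Ambp, which codes for a plasma protease inhibitor, had the opposite order, with every mutant above every control, as had 14.5% of all genes. It read 5.30, 5.85 and 5.31 in the controls and 6.01, 7.44 and 6.61 in the mutants (log2 difference 1.20, adjusted p = 0.248 from limma). The remaining 9 overlapped between the groups. Fga, which codes for a fibrinogen chain and is a defining marker of hepatocytes, stayed between 2.88 and 3.31 in all arrays, among the lowest signals. Of the 12 enteroendocrine markers, whose cells can make transthyretin, all were measured, and their summed linear signal was 3465 to 7840 in the controls and 3409 to 4332 in the mutants. Gcg and Scg5 had every mutant below every control, as had 8.86% of all genes. The rest of that list overlapped between the groups, and none of it passed the limma test. Control replicate 2, the highest for Ttr, had the lowest enteroendocrine sum of the controls. Of 12 listed markers of small intestine absorptive cells 11 were measured and none passed the limma test. Their summed linear signal was 2768.4, 3517.7 and 2902.2 in the controls and 2014.4, 2272.5 and 2199.5 in the mutants. The median of their differences from the control mean was -0.20, -0.02 and -0.19 in mutant replicates 1, 2 and 3. Enpep, Alpi and Cyp3a11 had every mutant below every control, as had 8.86% of all genes. Mme and Fabp6 had every mutant above every control, as had 14.5%. The rest of that list overlapped between the groups. The part of these cell types in the Ttr signal was not tested.

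**Figure D3:**
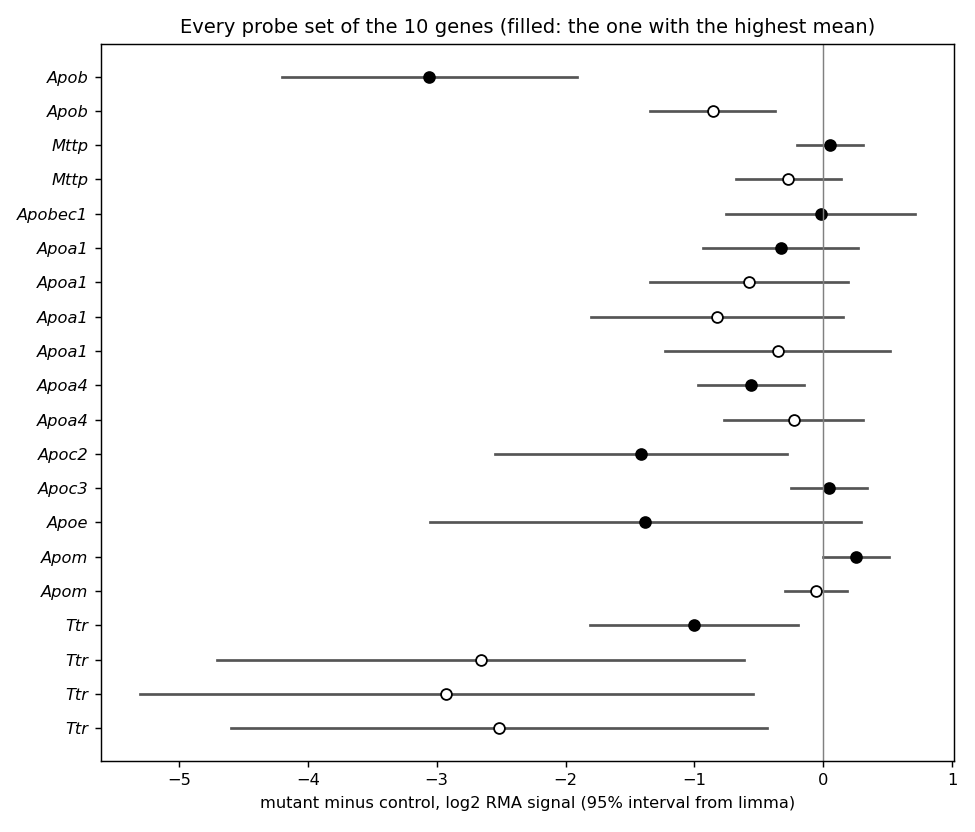
Mutant minus control difference in log2 RMA signal with the 95% limma interval for every probe set of the 10 genes, with filled symbols for the probe set that represents the gene. Both probe sets of Apob, all 4 of Apoa1 and all 4 of Ttr lie below 0, whereas the probe sets of Mttp and of Apom fall on both sides.

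Lists of neighbouring functions, 107 genes in all of which 98 were measured, were read beside the 10 genes. In them 5 genes passed an adjusted p of 0.05, all lower in the mutants: Tm6sf2, Saa1, Cubn, Ppara and the deleted gene Hnf4a itself. At that threshold in limma 0.396% of all genes were lower and 0.484% were higher, and the counts of single lists below use it too. At an unadjusted p of 0.05, limma had 17 of the 98 lower and 13 higher, where 6.18% and 10% of all genes were so, and SAM 16 and 13, where 5.77% and 9.78% were. Hnf4a kept its call with each array left out in turn, at an adjusted p of at most 0.0139 over all settings tried. The other 4 had the same sign throughout but each lost its call with some arrays left out, as given below for each.

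Of 29 measured genes for lipid loading, assembly and export of lipoproteins, 1 was lower, none was higher, and the median difference was -0.18. Tm6sf2, a membrane protein needed to fill apolipoprotein B particles with lipid, read 6.63, 7.42 and 6.92 in the controls and 4.69, 5.14 and 4.62 in the mutants. Its groups were more than 1 unit apart, and it fell by 2.17 on the log2 scale (standard error 0.23, adjusted p = 0.0174 from limma). It lost its call without control replicate 1 (adjusted p = 0.0606), control replicate 3 (0.0675), mutant replicate 1 (0.0573) or mutant replicate 3 (0.102), while the difference stayed between -2.35 and -1.96. Fabp2, the intestinal fatty acid binding protein, read 13.60, 12.94 and 12.58 in the controls and 9.74, 11.31 and 10.65 in the mutants, with its lowest value in the same array as Apob. Its difference of -2.47 did not pass the test (adjusted p = 0.0730). Gpat3, which starts glycerolipid synthesis, had a difference of 0.58 (adjusted p = 0.0825), also short of the threshold.

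**Figure D4:**
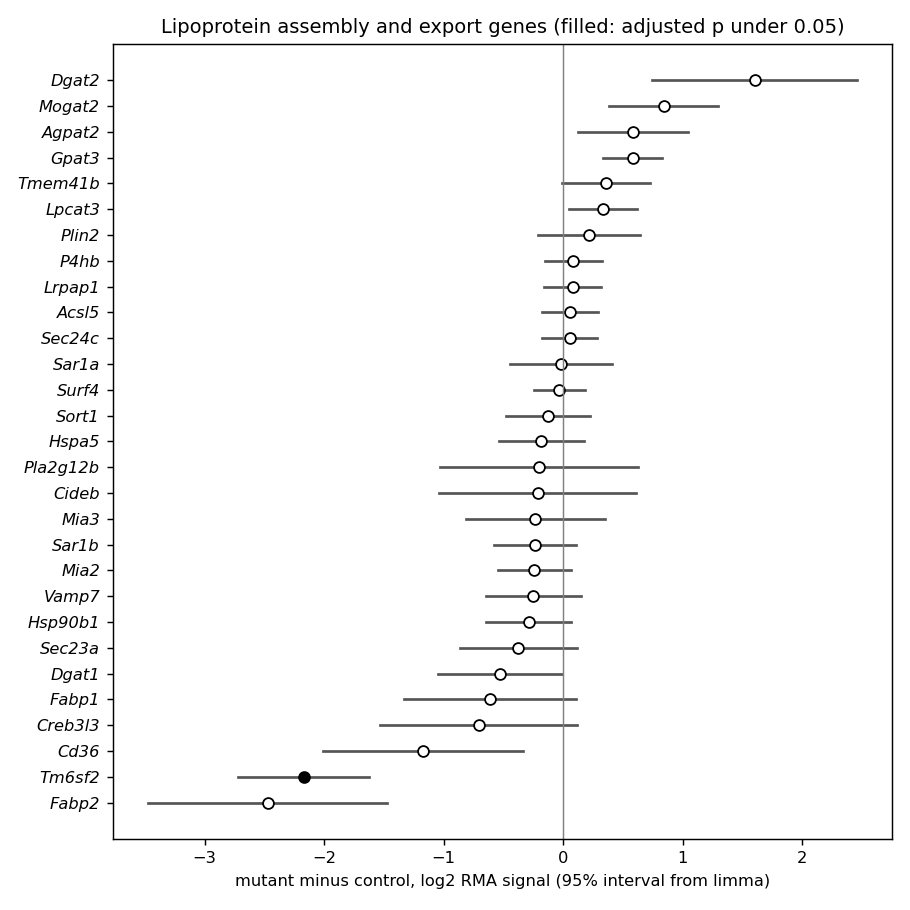
Mutant minus control difference in log2 RMA signal with the 95% limma interval for the 29 measured assembly and export genes, ordered by difference. Tm6sf2, filled, is the one with an adjusted p under 0.05, Fabp2 has the most negative difference and Dgat2 the most positive one.

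Among 18 other apolipoproteins and high density lipoprotein proteins, 1 was lower, none was higher and the median difference was 0.11. Saa1 codes for serum amyloid A, an acute phase protein carried on high density lipoproteins and also made by colon epithelium. It read 12.39, 11.71 and 11.77 in the controls and 9.11, 8.94 and 9.98 in the mutants, with no overlap, and fell by 2.61 on the log2 scale (standard error 0.31, adjusted p = 0.0252 from limma). Its near-identical neighbour Saa2 had a difference of -1.57 (adjusted p = 0.135), and how far the probes tell the 2 apart is uncertain. Saa1 lost its call without control replicate 1 (adjusted p = 0.115), control replicate 3 (0.0774), mutant replicate 1 (0.0738) or mutant replicate 2 (0.0578). Pon3, a lactonase of high density lipoproteins, had a difference of 0.78 (adjusted p = 0.0703).

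Of the 8 measured genes of Apob mRNA editing and the APOBEC family none passed the limma test, 1 was lower and 1 higher at an unadjusted p of 0.05 in limma and in SAM, and the median difference was 0.13. A1cf, the partner that guides Apobec1 to the mRNA, had a difference of -0.41 (adjusted p = 0.321). Hnrnpab differed by 0.28 and Celf2 by -0.64, the latter lowest in mutant replicate 2 and at -0.27 without it.

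Of 16 measured lipoprotein receptors and remodelling enzymes 1 was lower and none higher, with a median of -0.06. Cubn, the endocytic receptor cubilin, which binds apolipoprotein A-I, read 6.38, 5.86 and 6.03 in the controls and 3.72 to 4.34 in the mutants. It fell by 2.07 on the log2 scale (standard error 0.20, adjusted p = 0.0135 from limma), to signals near those of the Y-linked probe sets in the controls. It lost its call without control replicate 1 (adjusted p = 0.0755), control replicate 3 (0.0516) or mutant replicate 3 (0.0555). Lrp1, a receptor for particles that carry apolipoprotein E, had a difference of -1.76 (adjusted p = 0.127) and, like Apoe, was lowest in mutant replicate 2, at 6.61 against 8.07 and 8.02 in the other mutants. Without that array its difference was -1.28 (adjusted p = 0.0154 from limma). A second probe set of Lrp1 overlapped between the groups over all arrays, with a difference of -1.84 (adjusted p = 0.287 from limma). Lrp8, a further receptor for apolipoprotein E, had a difference of 0.66 that did not pass the test (adjusted p = 0.160).

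Of 21 measured transcription regulators known at apolipoprotein promoters 2 were lower, Hnf4a and Ppara, none was higher, and the median was -0.07. Ppara, a nuclear receptor for fatty acids, read 9.01, 8.62 and 8.88 in the controls and 7.67, 7.92 and 7.89 in the mutants. It fell by 1.01 on the log2 scale (standard error 0.13, adjusted p = 0.0368 from limma), and lost its call with any array but control replicate 2 left out (adjusted p = 0.0818 to 0.159). Of 6 measured carriers of thyroid hormone and retinol beside Ttr none passed the limma test, 1 was lower and none higher at an unadjusted p of 0.05 in limma and in SAM, and the median was -0.07. Lrat, which esterifies retinol, was nearest, with 6.62, 5.36 and 6.80 in the controls and 4.06, 4.28 and 4.03 in the mutants (log2 difference -2.14, adjusted p = 0.0701). Its groups did not overlap. Rbp2 and Stra6 had differences of -0.97 and 0.20.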

How the data were processed

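Total RNA from the proximal colon of each mouse was labelled and hybridised to an Affymetrix mouse genome array, 1 array a mouse. RMA, run by the authors on all 6 arrays, gave the deposited values, which are on the log2 scale. They were used as deposited. Columns of the probe table gave gene symbols, and 34945 of the 45037 probe sets left after removal of 64 control probe sets had 1 symbol. The fit was limma 3.58.1 (lmFit and eBayes, R 4.3.3), mutant minus control, two-sided, on all 45037 probe sets, with Benjamini-Hochberg adjustment over all of them. limma and a SAM statistic were tested on simulated data first. Arrays give no read depth, so their number, 3 a group, limits the precision. The limma p-values set each difference against the spread between littermates of a group, moderated over all 45037 probe sets. That spread includes mutant replicate 2, whose muscle and stroma markers were low.

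The genes and lists were chosen with earlier results of these data known. Named were all 10 genes, each pathway gene with an adjusted p under 0.05 and otherwise up to 3 of a list with the smallest p, Hnf4g as the paralog of Hnf4a, and the 5 genes most like Apob. Xist and Eif2s3y were named as the check of sex, and Fga as a defining marker near the lowest signals. Apoa5, Apoc4, Apoc1, Cps1, Ambp, Gcg, Scg5 and Dgat2 were named after their values were seen. So were the macrophage markers C1qa, C1qb, C1qc, Lyz2, Cd68 and Cd14, and Enpep, Alpi, Cyp3a11, Mme and Fabp6. All of these were named as neighbours of the genes, for their order over the arrays or as the end of a plotted list. Alternatives were an intensity trend, array weights, centring by the median or by gut epithelium markers, a filter at a mean log2 signal of 5, the mean of all probe sets, a replicate block, each array left out and SAM. Replicate numbers did not pair the samples.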

Additional observations from a re-analysis of the deposited data

How the results depend on the processing

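No gene of the 10 was called higher under any limma setting or SAM. None was called lower with median centring, with the filter at 5 or with the replicate number as a block (replicate block, 0 lower and 0 higher). Apob alone, so 1 gene, was called lower with an intensity trend (adjusted p = 0.0488), array weights (0.0248), gut epithelium centring (0.0337) or the mean of all probe sets (0.0276), and SAM called 4 without adjustment. With 1 array left out the count was 0 to 1, and the adjusted p of Apob reached 0.248 without control replicate 1, its highest value over all settings. Of 138 alternative values of single genes over 14 settings, 118 kept direction and side of the threshold. Differences near 0 reversed: Apobec1 to 0.0882 with array weights and 0.0121 with median centring, Apoc3 to -0.0684 and Mttp to -0.0602 with gut epithelium centring, and Mttp to -0.11 with the mean of all probe sets. With 1 array left out they ran from -0.36 to 0.19 for Apobec1, -0.0448 to 0.16 for Apoc3 and -0.0210 to 0.11 for Mttp. Apoc3 and Mttp had no value under the filter at 5.

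In the neighbouring lists, a check added after the data were seen, 5 genes were lower, against 8 with array weights, 7 with gut epithelium centring, 7 with the mean of all probe sets, 2 with the replicate block, 16 with SAM and 1 to 6 with 1 array left out. The count higher was 0, against 1 with array weights, 2 with the mean of all probe sets, 13 with SAM and 0 with any 1 array left out. The replicate block left Hnf4a and Tm6sf2 called. Same-numbered arrays did not deviate together (correlations of deviations -0.02, 0.25 and -0.15). The cause of these shifts was not tested.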
